A study of Mus musculus with 8 samples.

Results

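Transcripts of 54 genes of DNA replication and mitosis were followed in livers of mice whose hepatocytes had the genes of the RNA-binding proteins ZFP36L1 and ZFP36L2 deleted. The 54 genes were chosen by name, as known components of the replication and division machinery, out of 22052 genes in the table, and all 54 were found and tested. They fall into 25 S-phase genes (licensing, replication, nucleotide supply) and 29 G2/M genes (spindle, kinetochore, cytokinesis and their regulators). Livers with both genes deleted (dKO) came from 4 mice of genotype Zfp36l1fl/fl/Zfp36l2fl/fl/Alb-Cre, in which a Cre recombinase driven by the albumin promoter, active in hepatocytes, removes the floxed segments. The control livers came from 4 mice of genotype Zfp36l1fl/fl/Zfp36l2fl/fl without a Cre. Every mouse was a C57BL6 male aged 8 weeks and had received corn oil into the peritoneum, so the floxed alleles and the oil were common to both groups. Mice with the Cre alone are not analysed here, and which cells of the liver lost the genes was not tested.

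Before a cell copies its DNA, the origin recognition complex, CDC6 and CDT1 load the MCM helicase onto replication origins, and MCM10, GINS and CDC45 then help to start it. Later, cyclin A and cyclin B activate the kinase CDK1, chromosomes attach to the spindle through kinetochores, and the anaphase-promoting complex with CDC20 ends mitosis. Transcription of the early genes depends largely on E2F factors, and that of the late genes on the MuvB complex with B-MYB and FOXM1. Most adult hepatocytes are quiescent and many are polyploid, having copied their DNA without completing cell division. ZFP36L1 and ZFP36L2 recognise AU-rich stretches of an mRNA, mostly in its 3′ untranslated region (UTR), and shorten its life.

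The G2/M genes rose almost as a block, while fewer of the S-phase genes rose. Of the 29 G2/M genes, 25 rose in dKO livers, none fell and 4 did not pass the test, with a median log2 change of 1.78. Of the 25 S-phase genes, 11 rose (44%), 4 fell (16%) and 10 did not pass, with a median log2 change of 0.40. The levels are normalised read counts, that is, reads per gene scaled by a single factor per library. A gene is said to rise or fall where the limma adjusted p, over all 20055 genes tested, was under 0.05. Among all genes tested, 38.2% passed this rule (21.2% rose and 17.0% fell) and the median log2 change was 0.03, so the 36 of 54 members that rose stand beside a wide change of the transcriptome. The 16% of S-phase genes that fell is near the 17.0% of all genes. In whole liver, more cells in cycle and more RNA per cycling cell cannot be told apart.

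**Figure D1:**
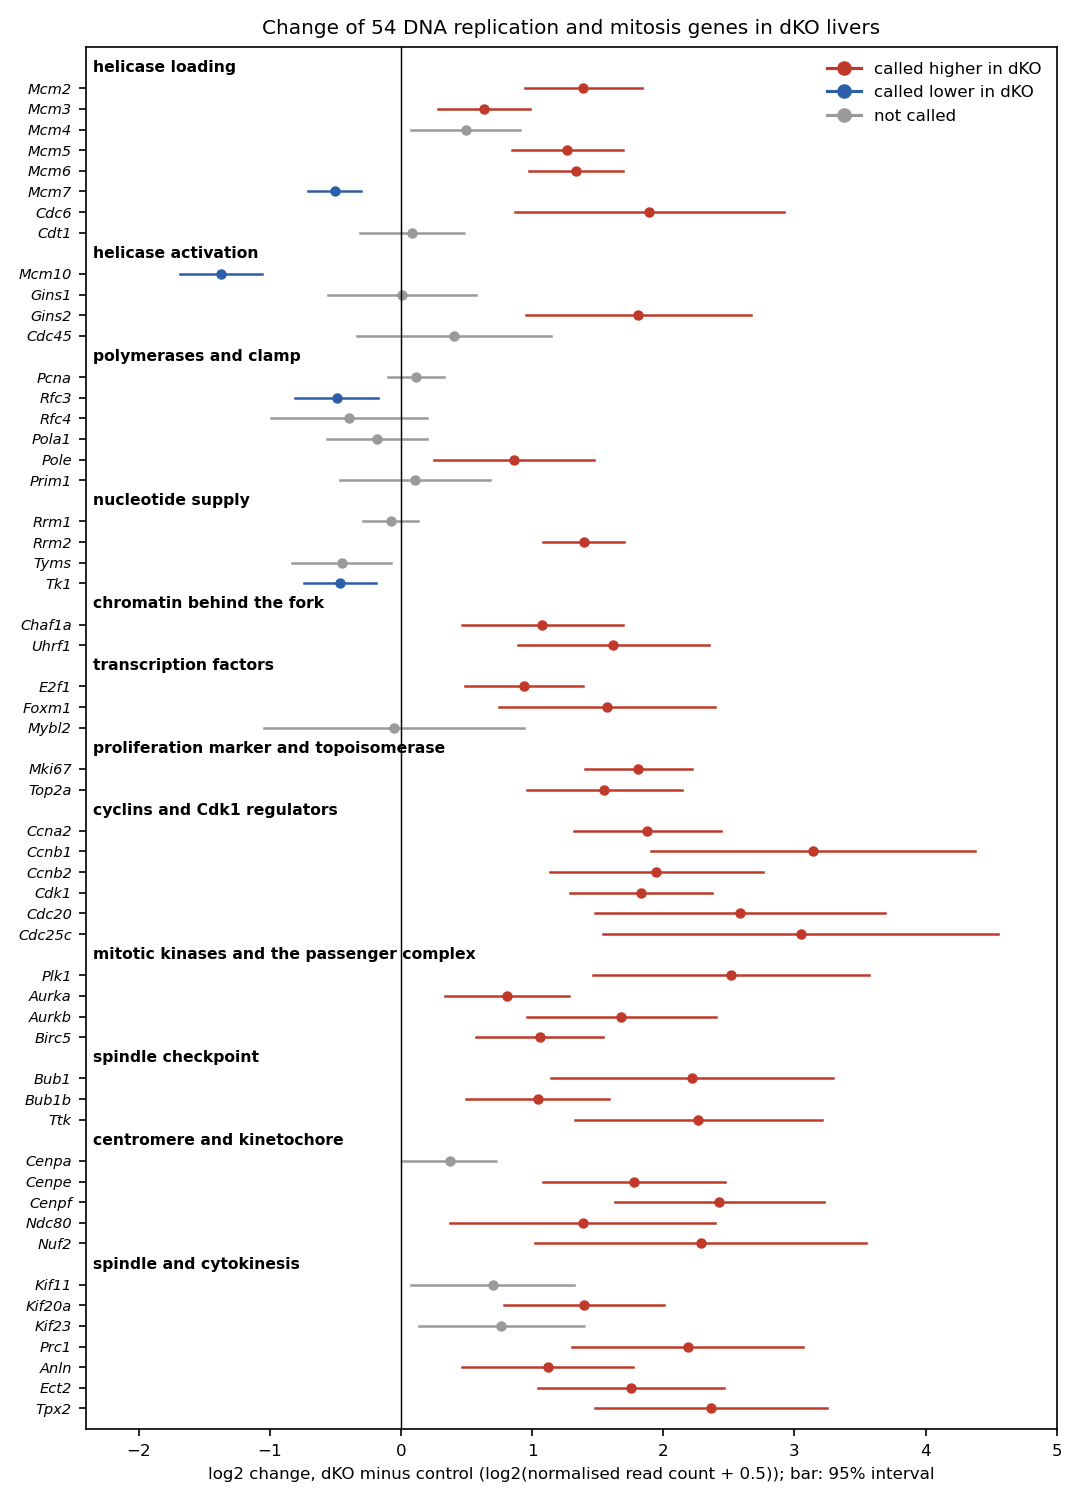
Log2 change of each of the 54 genes, dKO minus control, on the log2(normalised read count + 0.5) scale, with its 95% interval from limma, grouped by role; red marks genes that rose, blue those that fell and grey those that did not pass the test. Of the 36 red points, 25 are G2/M genes, and the 4 blue points (Mcm7, Mcm10, Rfc3 and Tk1) all lie in the S-phase groups.

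Without overlap between the groups, all 4 dKO values lay above all 4 control values in 22 of 29 G2/M genes and 11 of 25 S-phase genes, and below them in 0 and 3. Of all genes tested, 36.4% had no overlap, 19.4% with dKO above and 16.9% with dKO below control. The level of a gene affects how often it passes: among genes with a mean of 10 or more, 27.2% rose and 24.1% fell, and 53 of the 54 members had such a mean. The exception was Cdc25c, with a mean of 8.04. Under quantile normalisation, which lowered the median change of all genes by 0.11, 8 S-phase genes rose (32%) and 7 fell (28%). Of the G2/M genes, 21 rose (72.4%) and 0 fell, beside 18.1% and 21.5% of all genes.

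The promoters of 4 members are printed here, as examples of the sequence elements through which early and late genes are known to be controlled. The RefSeq promoter table (GRCm38.p6, 250 bases before to 50 after each transcription start) held 44 of the 54 genes. Capitals mark matches, on either strand, to an E2F-type site (TTTCCCGC, TTTCGCGC, TTTGGCGC or TTTGCCGC), the cell cycle homology region bound by MuvB (TTTGAA or TTCGAA) or the CCAAT box bound by NF-Y. On the reverse strand CCAAT reads ATTGG, and where matches touch or overlap they form a longer run of capitals. The 4 genes have the smallest limma adjusted p of each set among those that passed and held an E2F-type or homology match. Rrm2 and Mcm10, whose adjusted p was smaller than that of Mcm6, held neither. All 4 printed genes lie on the minus strand, and each sequence is written in the direction of transcription.
Mcm6 (S-phase, chr1:128359656-128359955): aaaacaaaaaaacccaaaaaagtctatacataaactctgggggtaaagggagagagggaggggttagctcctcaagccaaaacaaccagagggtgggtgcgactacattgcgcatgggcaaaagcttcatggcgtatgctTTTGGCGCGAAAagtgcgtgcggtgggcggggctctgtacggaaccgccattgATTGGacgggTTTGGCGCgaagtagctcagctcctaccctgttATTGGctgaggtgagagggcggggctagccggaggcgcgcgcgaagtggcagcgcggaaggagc
Mcm2 (S-phase, chr6:88898731-88899030): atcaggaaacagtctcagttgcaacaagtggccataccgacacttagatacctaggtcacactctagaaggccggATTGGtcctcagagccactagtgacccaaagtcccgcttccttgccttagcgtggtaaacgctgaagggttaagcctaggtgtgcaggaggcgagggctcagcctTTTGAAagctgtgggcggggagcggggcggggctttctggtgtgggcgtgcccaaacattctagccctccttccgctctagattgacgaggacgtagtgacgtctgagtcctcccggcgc
Mki67 (G2/M, chr7:135716330-135716629): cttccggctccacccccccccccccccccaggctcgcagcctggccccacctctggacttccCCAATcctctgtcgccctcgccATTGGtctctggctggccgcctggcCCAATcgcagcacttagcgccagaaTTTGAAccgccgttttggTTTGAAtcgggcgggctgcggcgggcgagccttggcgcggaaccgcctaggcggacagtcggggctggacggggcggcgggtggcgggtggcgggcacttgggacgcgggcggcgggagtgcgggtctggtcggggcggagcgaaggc
Cdk1 (G2/M, chr10:69352863-69353162): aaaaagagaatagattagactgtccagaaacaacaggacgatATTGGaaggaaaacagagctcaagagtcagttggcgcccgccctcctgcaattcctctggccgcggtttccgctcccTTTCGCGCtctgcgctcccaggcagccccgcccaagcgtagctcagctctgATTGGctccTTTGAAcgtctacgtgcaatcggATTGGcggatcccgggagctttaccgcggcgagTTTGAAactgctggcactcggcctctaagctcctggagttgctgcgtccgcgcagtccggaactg

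Mcm6 held 3 E2F-type matches, a pair of which overlap on opposite strands, and no homology region, while Mki67 held 2 homology regions and no E2F-type match. Cdk1 held both kinds, and Mcm2 a homology region without an E2F-type match. Over the S-phase genes with a window, 9 of 21 (42.9%) held an E2F-type match, as did 1 of 23 G2/M genes (4.35%) and 540 of 13098 tested genes (4.12%). The homology region was found in 4 of 21 S-phase genes (19.0%), 18 of 23 G2/M genes (78.3%) and 17.1% of tested genes. CCAAT was found in 71.4% of S-phase genes, 78.3% of G2/M genes and 42.1% of tested genes. Outside the 54 genes, E2F-type matches were found in 15 of 41 other replication genes (36.6%) and 7 of 58 other mitosis genes (12.1%). The homology region was found in 8 of 41 (19.5%) of those replication genes and 39 of 58 (67.2%) of those mitosis genes. A match is a string of letters, not a bound site. Of the 4 S-phase genes that fell, all had a window and 2 held an E2F-type match (Mcm7 and Rfc3). Over all members with a window, 6 of 28 that rose (21.4%) and 4 of 16 others (25%) held one. Whether the element bears on the direction of change was not tested.

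**Figure D2:**
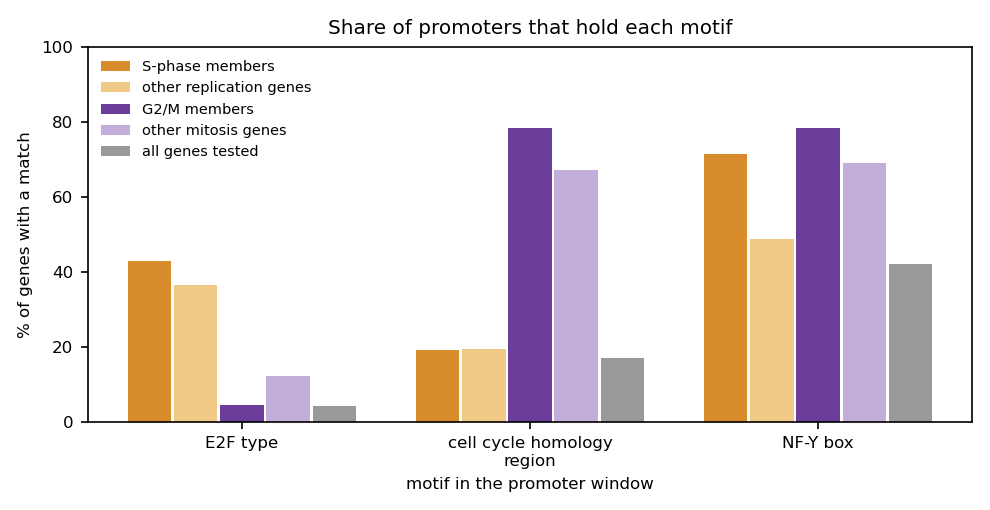
Share of genes with a promoter window, in percent on the vertical axis, that hold each of the 3 motifs on the horizontal axis in any of their windows, for the gene sets in the legend. E2F-type matches stand highest in the S-phase genes (42.9%), and the cell cycle homology region in the G2/M genes (78.3%).

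The helicase loading genes encode the MCM2 to MCM7 ring and its loaders. Of 8 genes, 5 rose (Mcm2, Mcm3, Mcm5, Mcm6 and Cdc6), 1 fell (Mcm7) and Mcm4 and Cdt1 did not pass. Mcm6, a subunit of the ring, had 285, 357, 305 and 270.0 normalised read counts in dKO livers 1 to 4, against 119, 119, 89.4 and 161 in control livers 1 to 4. It rose by 1.33 on the log2 scale (SE 0.17, limma adjusted p = 4.83e-05), and every dKO liver lay above every control liver. Mcm2, another subunit, had 186, 184, 172 and 182 in dKO livers and 46.2, 75.9, 63.1 and 101 in control livers, a log2 change of 1.39 (SE 0.20, limma adjusted p = 0.000173). The dKO livers were close together and the control livers spread more than the dKO livers did, with control 4 the highest and still below all dKO livers. Mcm5 changed by 1.27 (SE 0.19) and Mcm3 by 0.63 (SE 0.16), also without overlap.

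Mcm7, which belongs to the same ring, went the other way. Its counts were 225, 211, 204 and 199 in dKO livers and 295, 289, 311 and 298 in control livers, a log2 change of -0.51 (SE 0.093, limma adjusted p = 0.000896). The groups did not overlap, and the highest dKO liver lay well under the lowest control liver. Per kilobase of exon, the dKO means of Mcm2, Mcm3, Mcm4, Mcm5, Mcm6 and Mcm7 were 26.0, 42.6, 34.4, 32.0, 65.2 and 47.4 normalised read counts, and the control means were 10.3, 27.7, 24.2, 13.5, 26.2 and 67.4. In control livers Mcm7 thus had the highest level per length of the 6 subunits, and in dKO livers Mcm6 did. Without division by length, Mcm7 also led in control livers (mean 298) and Mcm6 in dKO livers (mean 304). Exons of Mcm7 share 7.25% of their bases with Ap4m1 and 1.45% with Cops6 on the opposite strand, both of which fell too, by 0.42 and 0.39 on the log2 scale. The strand setting of the counting is unknown here, and the part of these neighbours in the Mcm7 count was not tested.

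Cdc6, the loading factor that is made anew in each cycle, had few reads, 96 over the dKO livers and 22 over the control livers. Its normalised counts were 19.1, 33.3, 22.1 and 14.0 in dKO livers and 2.05, 6.16, 7.36 and 8.01 in control livers, without overlap, and it rose by 1.89 (SE 0.47, limma adjusted p = 0.00683). Its partner Cdt1 had 98.5, 116, 97.1 and 76.3 in dKO livers and 114, 80.0, 76.8 and 96.1 in control livers, which overlapped, with a log2 change of 0.084 (95% interval -0.31 to 0.48). Mcm4 had a log2 change of 0.49 (95% interval 0.077 to 0.91, limma adjusted p = 0.0598) and its groups overlapped through dKO 1.

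Of the 4 helicase activation genes, 1 rose (25%), 1 fell (25%) and 2 did not pass. These shares are near the 21.2% and 17.0% of all genes tested. Mcm10, which binds the loaded helicase and helps to open the origin, had the highest level per kilobase of exon among the 4 genes and the largest fall among all 54 genes. It had 536, 323, 359 and 336 in dKO livers and 1038, 990.0, 1067 and 866 in control livers, with no overlap, and dKO 1 stood above the other dKO livers. The log2 change was -1.38 (SE 0.14, limma adjusted p = 1.18e-05), and the dKO mean was 389 ± 99.5 against 990.1 ± 88.7 in control livers (SD, n = 4 each). Gins2, a GINS subunit, had 45.3, 35.1, 35.8 and 42.8 in dKO livers and 16.4, 8.21, 5.26 and 19.4 in control livers and rose by 1.81 (SE 0.40, limma adjusted p = 0.00305), again without overlap. Of the Gins2 exon bases, 67.3% are shared with Gse1 on the opposite strand, which had a log2 change of -0.20 and did not pass the test. Gins1 and Cdc45 did not pass, with log2 changes of 0.0089 (95% interval -0.55 to 0.57) and 0.40 (-0.34 to 1.15).

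Of the 6 clamp and polymerase genes, 1 rose (16.7%), 1 fell (16.7%) and 4 did not pass, beside 21.2% and 17.0% of all genes. Pcna, the sliding clamp that tethers polymerases to DNA and a usual marker of S phase, had 419, 539.9, 441 and 449 in dKO livers and 388, 418, 441 and 457 in control livers. The groups overlapped, and the log2 change of 0.11 had a 95% interval of -0.10 to 0.33 (limma adjusted p = 0.401), so a 2-fold rise lies outside it. Pole, the catalytic subunit of the leading-strand polymerase, had 69.4, 56.4, 61.3 and 71.7 in dKO livers and 41.1, 40.0, 18.9 and 49.2 in control livers and rose by 0.86 (SE 0.28, limma adjusted p = 0.0284), with control 3 the lowest of all. It was the least stable of the S-phase calls, passing in 12 of 17 other settings. Rfc3, a clamp loader subunit, fell by 0.49 (SE 0.15, limma adjusted p = 0.0174) without overlap. Rfc4, Pola1 and Prim1 did not pass, with log2 changes of -0.40, -0.18 and 0.10. Of the Rfc4 exon bases, 12.65% are shared with Eif4a2 on the opposite strand, which had a log2 change of -0.56. Eif4a2 averaged 3067 in dKO and 4531 in control livers, against 32.4 and 42.8 for Rfc4. The part of this neighbour in the Rfc4 count was not tested.

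Of the 4 nucleotide supply genes, 1 rose (25%), 1 fell (25%) and 2 did not pass, beside 21.2% and 17.0% of all genes. Rrm2, the subunit of ribonucleotide reductase whose level limits the enzyme in S phase, had 223, 255, 233 and 179.7 in dKO livers and 96.5, 80.0, 76.8 and 83.5 in control livers. It rose by 1.39 (SE 0.14, limma adjusted p = 1.02e-05), the smallest adjusted p of the 54 genes, with a wide gap between the groups. Rrm1, the other subunit, had 206, 217, 202 and 199 in dKO livers and 219, 208, 227 and 216 in control livers, a log2 change of -0.078 (95% interval -0.29 to 0.13). Per kilobase of all annotated exons merged, Rrm2 averaged 80.4 normalised read counts in dKO livers and 30.4 in control livers. Rrm1 averaged 18.7 in dKO livers and 19.8 in control livers. These merged lengths were 2771 bases for Rrm2 and 11012 for Rrm1. Without division by length, the control means were 84.2 for Rrm2 and 218 for Rrm1, so their order in control livers depends on the length used. Tk1, thymidine kinase of the salvage pathway, had 591, 411, 372 and 475 in dKO livers and 660.3, 588, 669 and 603 in control livers. It fell by 0.47 (SE 0.13, limma adjusted p = 0.0115), although dKO 1 exceeded control 2, so the groups overlapped. Its neighbour Afmid, which shares 1.60% of the Tk1 exon bases on the opposite strand, fell by 0.89. Tyms, thymidylate synthase, did not pass, with a log2 change of -0.45 (limma adjusted p = 0.0567).

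Both genes that act on chromatin behind the fork rose. Uhrf1, which brings the maintenance DNA methyltransferase to newly copied DNA, had 103, 98.9, 81.8 and 93.1 in dKO livers and 47.2, 14.4, 25.2 and 48.0 in control livers, and changed by 1.62 (SE 0.34, limma adjusted p = 0.00212). Chaf1a, a subunit of the histone chaperone that places nucleosomes on new DNA, changed by 1.08 (SE 0.28, limma adjusted p = 0.00917). Of its exon bases, 52.5% are shared with Ubxn6 on the opposite strand, which had a log2 change of 0.17 that did not pass.

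**Figure D3:**
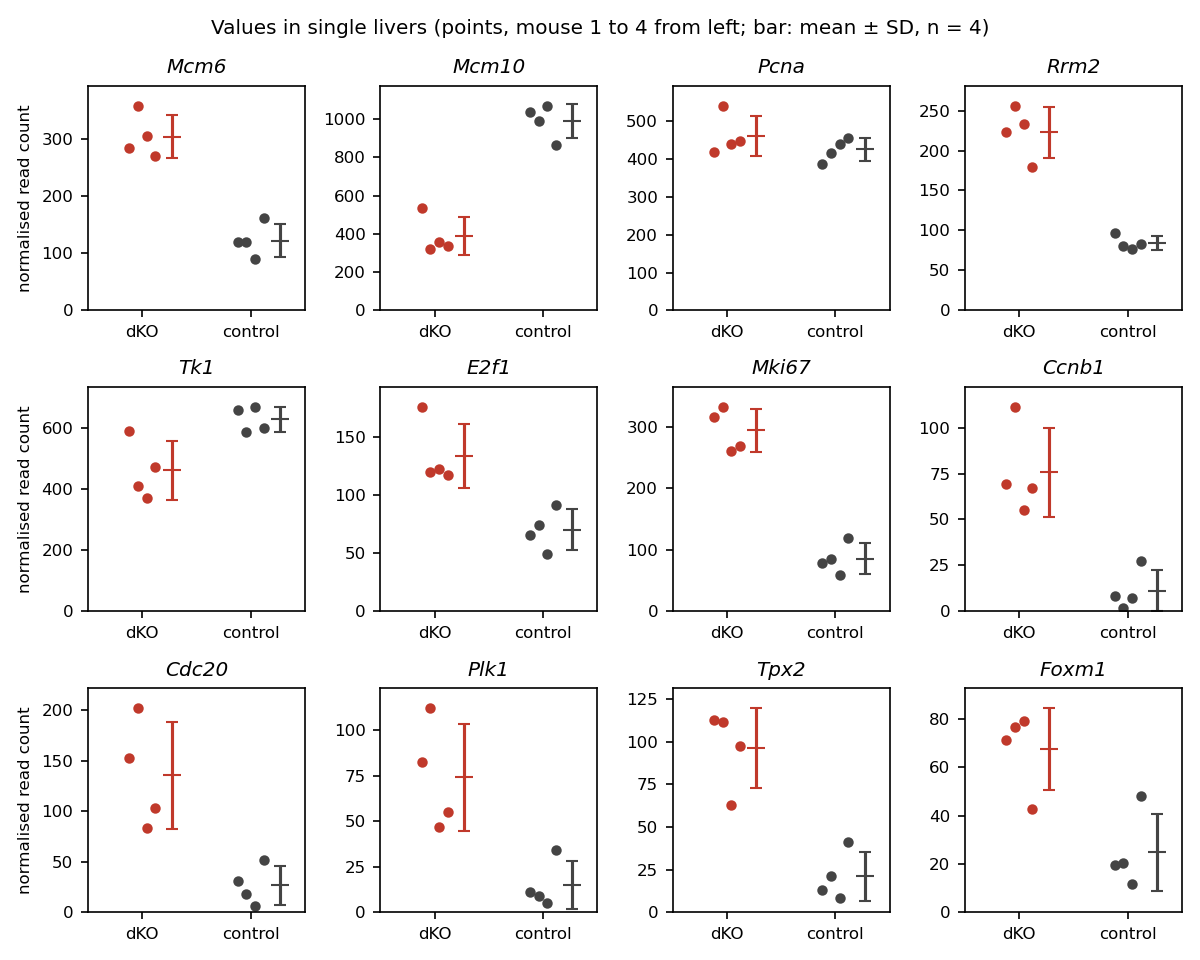
Normalised read count in each liver for 12 of the genes, dKO in red to the left of control in grey, points for mice 1 to 4 from left to right and bars for the mean ± SD (n = 4 livers); each vertical axis starts at 0. Mcm10 and Tk1 sit lower in dKO livers, the groups overlap for Pcna, and in Mki67 the lowest dKO liver (261) stands above the highest control liver (120.1).

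Of the regulators of transcription, E2f1 and Foxm1 rose and Mybl2 had few reads and did not pass. E2f1, the activating E2F factor, had 175, 119, 122 and 117 in dKO livers and 65.7, 73.9, 49.4 and 91.5 in control livers, with dKO 1 far above the other dKO livers and no overlap with controls. Its log2 change was 0.94 (SE 0.21, limma adjusted p = 0.0032). Foxm1, which drives late cell cycle genes, had 71.4, 76.7, 79.2 and 42.8 in dKO livers and 19.5, 20.5, 11.6 and 48.0 in control livers, and rose by 1.57 (SE 0.38, limma adjusted p = 0.00575). Control 4 exceeded dKO 4 in Foxm1, so the groups overlapped, and without control 4 the change was 1.95. Mybl2, encoding B-MYB, had 6.03, 15.7, 8.52 and 10.2 in dKO livers and 14.4, 5.13, 9.47 and 13.7 in control livers, a log2 change of -0.053 with a wide 95% interval of -1.04 to 0.94.

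Among the late genes, the proliferation marker Mki67, the Ki-67 protein that coats mitotic chromosomes, had 316, 332, 261 and 269 in dKO livers and 78.0, 85.2, 60.0 and 120.1 in control livers. Every dKO liver was more than double the highest control liver, and the means were 294 ± 34.9 in dKO livers and 85.8 ± 25.2 in control livers (SD, n = 4 each). The log2 change was 1.81 (SE 0.19, limma adjusted p = 1.1e-05). An exact 2-sided permutation test over the 70 assignments gave p = 0.0286, the smallest value that 4 against 4 livers allow. Top2a, the topoisomerase that untangles sister chromosomes, had 182, 239, 202 and 170.4 in dKO livers and 85.2, 44.1, 46.3 and 114 in control livers and rose by 1.55 (SE 0.27, limma adjusted p = 0.000669), without overlap.

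All 6 cyclins and regulators of CDK1 rose without overlap, by 1.83 to 3.14 on the log2 scale. Ccnb1, cyclin B1, had the largest log2 change of the 54 genes by limma, with 69.4, 111, 55.4 and 67.0 in dKO livers and 8.21, 2.05, 7.36 and 27.4 in control livers. The change was 3.14 (SE 0.57, limma adjusted p = 0.000827), and control 4 held more than all other controls together. Without that liver the change was 3.72. Cdc20, the activator of the anaphase-promoting complex, had 153, 202, 83.5 and 103 in dKO livers and 30.8, 18.5, 6.31 and 51.5 in control livers and rose by 2.58 (SE 0.51, limma adjusted p = 0.00149), with dKO 2 the highest. Cdk1 itself changed by 1.83 (SE 0.25), Ccna2 by 1.88 (SE 0.26) and Ccnb2 by 1.95 (SE 0.37). Cdc25c, a phosphatase that activates CDK1, rested on 63 reads over the dKO livers and 5 over the control livers, so its fitted change of 3.05 depends on the added 0.5. By the ratio of the group means Cdc25c, at 11.0, stood above Ccnb1, at 6.72.

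The mitotic kinases and the passenger complex rose in 4 of 4 genes. Plk1, the polo-like kinase of mitotic entry and spindle assembly, had 82.5, 112, 46.8 and 54.9 in dKO livers and 11.3, 9.23, 5.26 and 34.3 in control livers, a log2 change of 2.51 (SE 0.48, limma adjusted p = 0.00127). The highest control liver was again control 4, below all dKO livers. Aurka, the centrosomal kinase, had 104, 121, 80.1 and 75.4 in dKO livers and 38.0, 59.5, 54.7 and 64.0 in control livers and rose by 0.81 (SE 0.22, limma adjusted p = 0.0109). Aurkb and Birc5 (survivin), which act together in the chromosomal passenger complex, changed by 1.68 (SE 0.33) and 1.06 (SE 0.22), both without overlap.

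All 3 spindle checkpoint genes rose, and none of their groups overlapped. Ttk, the kinase that starts checkpoint signalling at unattached kinetochores, had 17.1, 33.3, 17.9 and 11.2 in dKO livers and 4.11, 3.08, 3.16 and 3.43 in control livers, where only 13 reads were found in all. It rose by 2.27 (SE 0.43, limma adjusted p = 0.00118). Bub1b, which encodes a subunit of the complex that holds CDC20, had 51.3, 77.7, 52.8 and 77.3 in dKO livers and 28.8, 44.1, 27.3 and 25.2 in control livers, a change of 1.04 (SE 0.25, limma adjusted p = 0.00565). Bub1 changed by 2.22 (SE 0.49).

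At the kinetochore, the outer parts rose and the centromeric histone did not pass the test. Cenpf, a kinetochore protein that accumulates in G2, had 68.4, 102, 59.6 and 45.6 in dKO livers and 11.3, 7.18, 10.5 and 22.9 in control livers and rose by 2.43 (SE 0.37, limma adjusted p = 0.000218), with dKO 2 the highest. Cenpa, the histone H3 variant that marks centromeres, had 153, 159, 116 and 120.1 in dKO livers and 130.4, 91.3, 102 and 99.5 in control livers. Its groups overlapped, and the log2 change of 0.37 (95% interval 0.017 to 0.72, limma adjusted p = 0.0926) missed the threshold. The kinetochore motor Cenpe changed by 1.78 (SE 0.32) and Nuf2, of the microtubule-binding NDC80 complex, by 2.28 (SE 0.58). Ndc80 had 25.1, 24.0, 26.4 and 14.0 in dKO livers and 3.08, 8.21, 10.5 and 14.9 in control livers, which overlapped. Its call at a limma adjusted p of 0.0327 (log2 change 1.38, SE 0.47) held in 10 of 17 other settings.

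Of 7 spindle and cytokinesis genes, 5 rose. Tpx2, which activates Aurora A on the spindle, had 113, 112, 63.0 and 97.8 in dKO livers and 13.3, 21.5, 8.41 and 41.2 in control livers, with dKO 3 the lowest of its group, and rose by 2.36 (SE 0.41, limma adjusted p = 0.00058). Prc1, which bundles the microtubules of the central spindle, had 105, 151, 79.2 and 89.4 in dKO livers and 30.8, 15.4, 10.5 and 48.0 in control livers, a change of 2.19 (SE 0.40, limma adjusted p = 0.000971). Both were free of overlap. Ect2, which directs the contractile ring, changed by 1.75 (SE 0.33), the kinesin gene Kif20a by 1.39 (SE 0.28) and the ring scaffold Anln by 1.12 (SE 0.30), the last with overlap. Exons of Kif20a share 29.3% of their bases with Cdc23 on the opposite strand, which had a log2 change of 0.10 that did not pass. The kinesin genes Kif11 and Kif23 missed the threshold, with log2 changes of 0.70 (95% interval 0.075 to 1.32) and 0.76 (0.14 to 1.39).

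Single livers differed across both sets of genes. Among the dKO livers, dKO 2 was the highest in 25 of 29 G2/M genes, with a median deviation of 0.47 on the log2 scale from its group mean, and dKO 3 was the lowest in 16. Among the controls, control 4 was the highest in 17 of 29, with a median deviation of 0.66, and control 3 the lowest in 14. In the 25 S-phase genes, dKO 2 was the highest dKO liver in 11, and control 4 was the highest control in 14, with a median deviation of 0.27, and control 3 the lowest in 11. The summed G2/M levels were 2427, 3118, 1879 and 2020.4 normalised read counts in dKO livers 1 to 4 and 831, 767, 624 and 1083 in control livers 1 to 4. The groups did not overlap, and the dKO mean of 2361 ± 556 was 2.86 times the control mean of 826 ± 192 (SD, n = 4 each). The summed S-phase levels were 4020.4, 3964, 3487 and 3604 in dKO livers and 3905, 3716, 3838 and 3922 in control livers, which overlapped. Mcm10, the S-phase gene with the highest control mean, fell and weighs on this sum. It held 990.1 of the control mean of 3845 and 389 of the dKO mean of 3769. The S-phase sum thus stayed level although 11 of the 25 genes rose and their median log2 change was 0.40. Leaving out control 4, 25 G2/M genes rose and 0 fell with a median change of 1.95, and 11 S-phase genes rose and 4 fell, while 21.4% of all genes rose and 16.5% fell. With control 4 and dKO 2 both left out, a choice made after their values were seen, the counts were 25 and 0 for G2/M and 11 and 5 for S-phase genes, and 19.3% of all genes rose and 14.6% fell.

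**Figure D4:**
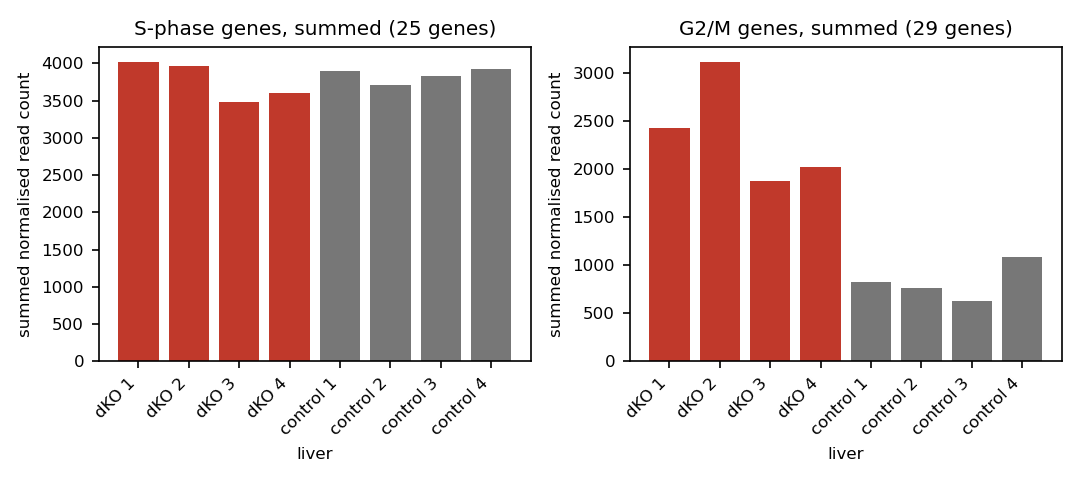
Summed normalised read count of the 25 S-phase genes and of the 29 G2/M genes in each liver, dKO in red and control in grey, with vertical axes that start at 0. The G2/M sums of the 4 dKO livers (1879 to 3118) all exceed those of the controls (624 to 1083), while the S-phase sums of the groups overlap. Mcm10, which fell, is the largest part of the S-phase sum in control livers.

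**Figure D5:**
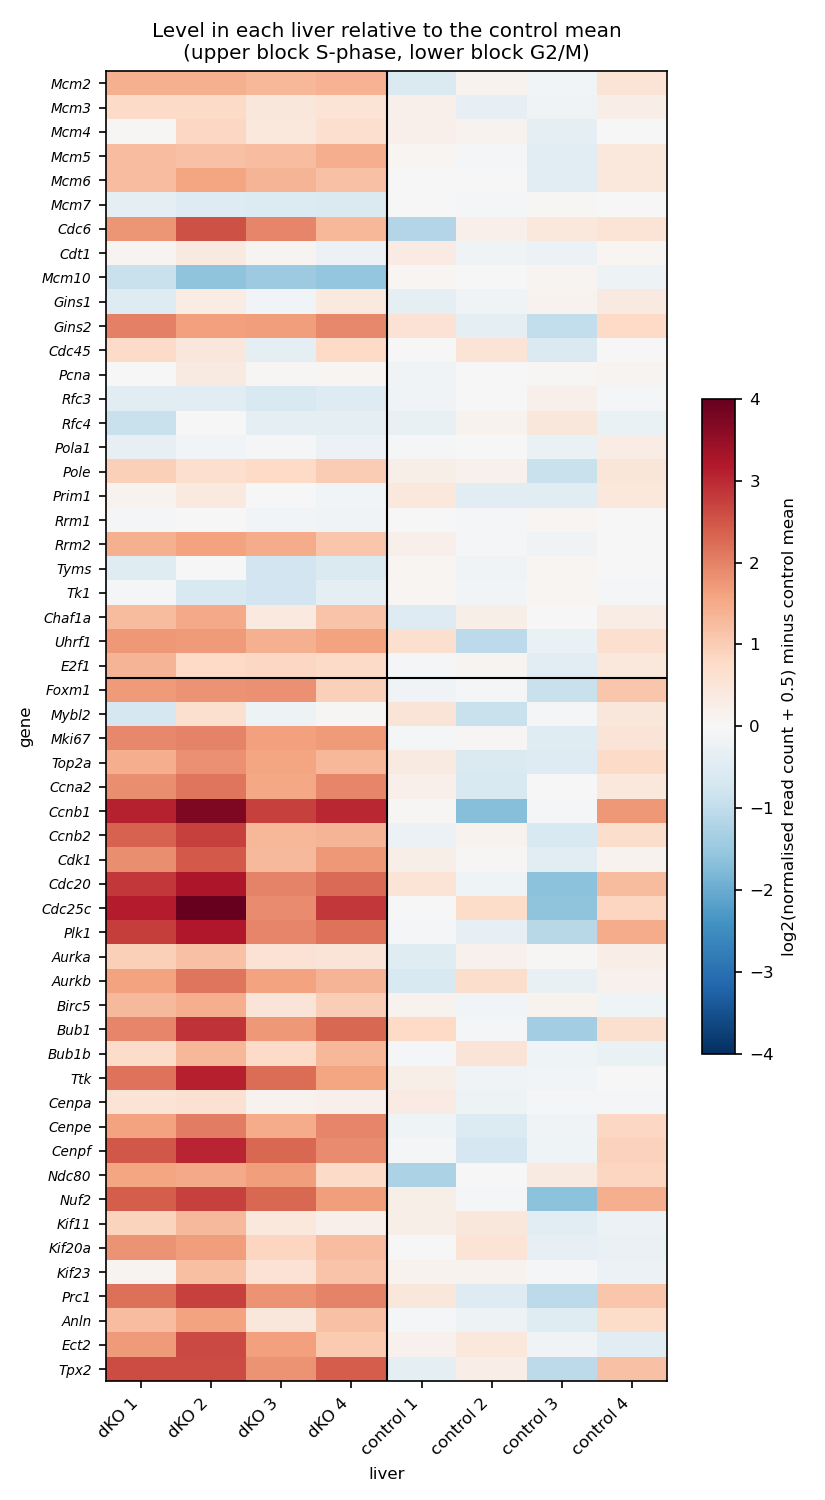
Level of each of the 54 genes (rows) in each of the 8 livers (columns, dKO left, control right), as the log2 difference from the mean of the control livers, S-phase genes in the upper block and G2/M genes in the lower. The lower block is higher across the 4 dKO columns, most in dKO 2, and control 4 is the highest control column for most late genes; the upper block holds rows of either sign.

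Wider lists of the same pathways were read beside the members. Of 65 other mitosis genes, 42 rose (64.6%), 3 fell (4.62%) and 20 did not pass, with a median log2 change of 1.30, beside 21.2% and 17.0% of all genes tested. Of 50 other replication genes, 11 rose (22%), 10 fell (20%) and 29 did not pass, with a median of 0.07, shares near those of all genes. Under quantile normalisation 6 of them rose (12%) and 14 fell (28%), beside 18.1% and 21.5% of all genes. By the 4 smallest adjusted p-values of each list, Pola2 of the primase complex changed by -0.82 (SE 0.12), Pold2 of polymerase delta by -0.74 (SE 0.13), the origin recognition subunit Orc3 by -0.52 (SE 0.10) and DNA ligase 1, Lig1, by 1.08 (SE 0.21). In the mitosis list, Ube2c, the ubiquitin-conjugating enzyme of the anaphase-promoting complex, had 115, 128, 65.6 and 65.2 in dKO livers and 16.4, 13.3, 12.6 and 22.9 in control livers, a change of 2.45 (SE 0.30, limma adjusted p = 4.16e-05). The chromosome kinesin gene Kif22 changed by 2.14 (SE 0.26) and the kinetochore gene Kntc1 by 2.41 (SE 0.33). Ccnf, cyclin F, which marks RRM2 for degradation, went the other way by -0.76 (SE 0.10), with 184, 180.3, 172 and 179.7 in dKO livers and 298, 301, 288 and 331 in control livers.

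Of 37 genes of G1 and cell cycle control, 17 rose (45.9%, beside 21.2% of all genes), 7 fell (18.9%, near the 17.0% of all genes) and 13 did not pass. Under quantile normalisation 13 rose (35.1%) and 9 fell (24.3%), beside 18.1% and 21.5% of all genes. The cyclin gene Ccnd1 changed by 2.66 (SE 0.22) and the antiproliferative gene Btg2 by 3.09 (SE 0.27). Cdc25a, which encodes the phosphatase that activates CDK2 and CDK1, had 207, 218, 167 and 156 in dKO livers and 67.8, 57.5, 77.8 and 64.0 in control livers, a change of 1.47 (SE 0.16, limma adjusted p = 1.56e-05). Wee1, the kinase that holds CDK1 inactive and so opposes it, had 332, 256, 349 and 219.7 in dKO livers and 60.6, 66.7, 24.2 and 28.6 in control livers, a change of 2.78 (SE 0.30, limma adjusted p = 1.74e-05). Cdc25a and Wee1, whose products act in opposite ways on CDK1, thus both rose, each without overlap between the groups.

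The heptamer TATTTAT, the core of sites that the ZFP36 proteins bind, was looked for in the 3′ UTRs of GENCODE release M21 (GRCm38). It was found in 15 of the 54 members (27.8%) and in 4645 of 15419 tested genes with a 3′ UTR (30.1%), a share near that of the background. Of the 36 members that rose, 14 held it (38.9%), as did 1 of the other 18 (5.56%), namely Cdc45. The longest 3′ UTR of a gene had a median of 884 bases in the members that rose and 464 bases in the others, against 1097 bases in all tested genes, and a longer UTR gives more chances of a match. The sites of 5 members are printed because they cover the cyclins, the licensing genes, the factor E2f1 and the exception Cdc45; capitals mark the heptamer, the strand is that of the mRNA, and the coordinates are those of the heptamer. They were picked after their values were seen.
Ccnb1 (chr13:100779247-100779253, minus strand): tttatgtaatTATTTATttgttcttaa
Ccna2 (chr3:36565697-36565703, minus strand): ggagacatttTATTTATcaactttaac
Cdc6 (chr11:98921876-98921882, plus strand): attgtgaataTATTTATtttcaagttt
E2f1 (chr2:154559910-154559916, minus strand): ccaagcagttTATTTATtgggaaaggg
Cdc45 (chr16:18780533-18780539, minus strand): tccttttcctTATTTATatttcctggc

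E2f1 held 3 heptamers, a pair of which overlap, and the printed site is the separate one. Birc5 held 3 overlapping heptamers, and Mcm2, Mcm5, Chaf1a, Bub1, Cenpe, Cenpf, Nuf2, Prc1 and Anln held 1 each. Mki67, Top2a, Cdc20, Plk1 and Rrm2, which all rose, held none.

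Facts of the libraries and of the other cells in the liver bear on these values. Between 15253827 and 19299556 reads per library were assigned to genes, and a count of 0 allows up to 3 reads, or 2.55 to 3.43 normalised read counts, as counting error only. Zfp36l1 stood at 214, 213, 209 and 267 in dKO livers and 1321, 1336, 1182 and 1642 in control livers, and Zfp36l2 averaged 50.3% of its control level. Hepatocyte markers were abundant in every liver, with summed levels of 1007660 to 1074040 in dKO livers and 999461 to 1137920 in control livers, although 3 of 6 fell. Of the markers of neutrophils and their precursors, 9 of 9 rose (sums of 1139 to 1354 in dKO livers and 128 to 334 in control livers), with Ltf and Mpo at 0 in all controls. Of the monocyte and macrophage markers, 8 of 9 rose (7259 to 11030.4 in dKO livers and 1543 to 6061 in control livers), and of the cholangiocyte markers 7 of 7 (8252 to 12555 in dKO livers and 661 to 1561 in control livers). Control 4, the highest control in most G2/M genes, was also the highest control in all 3 of these sums. Among the dKO livers, dKO 2 was the highest in the neutrophil and cholangiocyte sums, and dKO 4 in the monocyte and macrophage sum. The stellate cell sum was also highest in control 4 among controls and in dKO 2 among dKO livers. Control 4 was the highest control in the hepatocyte sum (1137920) and the T and NK cell sum (76.6) too. It was the lowest control in the Kupffer cell sum (4520), and other controls led the B cell, endothelium and erythroid sums. Among dKO livers, dKO 1 led the hepatocyte sum and dKO 4 the T and NK cell and Kupffer cell sums. Spp1, at 11761 normalised read counts in dKO 2, made up most of the cholangiocyte sum. Each of the other cholangiocyte markers was highest in dKO 1 or dKO 4. Of these markers that rose, Lyz2, Krt19, Krt7 and Epcam had groups that overlapped. Stellate cell markers rose in 5 of 8, Kupffer cell markers in 2 of 5 and T and NK cell markers in 3 of 8. Sinusoidal endothelium markers rose in 2 of 6 with 1 that fell, erythroid markers in 4 of 7 with 2 that fell, and B cell markers in 1 of 6 with 3 that fell. Beside these counts, 21.2% of all genes tested rose and 17.0% fell, and the lists are short. The part of these cells in the levels of the 54 genes was not tested, and whole-liver RNA does not show which cells hold the transcripts.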

How the data were processed

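Whole-liver RNA of 4 dKO and 4 control mice was sequenced, 1 library per mouse, per the labels. The submitters' processing notes name fastp, HISAT2 2.0.5, featureCounts 1.5.0-p3, DESeq2 and build mm10, with no role or order, and no source used here gives the annotation or strand setting. Although its name says FPKM, the deposited table holds a normalised signal: gene read counts divided by 1 size factor per library, since all values of a library (100%) are whole multiples of 1 step within 0.001. The planned test, written for FPKM, was kept. Dividing by the step recovered the reads.

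After log2(value + 0.5), the 20055 genes whose mean was at least 0.5 were kept, and dKO was compared with control by limma 3.58.1 (eBayes with trend, R 4.3.3), 2-sided, adjusting by Benjamini-Hochberg over all genes tested and a threshold of 0.05. A change is a difference of mean logs on this scale, not a ratio of means, and the added 0.5 pulls it toward 0 where counts are low. Alternatives used another pseudocount, other filters, quantile normalisation, robust variances, edgeR 4.0.16 and DESeq2 1.42.0 on the recovered reads, a replicate block and leaving out livers. On simulated data for this comparison (19332 genes, 200 changed, with means of 5 to 500), the test recovered 57% of the 2-fold and 86% of the 4-fold changes, with false calls making up 7.14%. Far fewer genes changed there than the 38.2% that passed in the livers, so these rates need not hold for the real comparison. Symbols matched 21796 of 22052 identifiers, and gene lengths and 3′ UTRs came from GENCODE M21. A gene length is that of all annotated exons of the gene merged, which can exceed the length of the transcript present.

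Per-liver values are given for Mki67, Top2a, Pcna, E2f1, Foxm1, Mybl2 and, in each of 12 role groups, the member with the highest mean and that with the largest change, and for 4 genes per wider list by smallest adjusted p the change is given. Values of further members were added after they were seen. The members, lists and rules were chosen with earlier results of these data known.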

Additional observations from a re-analysis of the deposited data

Results flagged for a closer look

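E2f1 had a value of 175 normalised read counts in dKO 1, against 117 to 122 in the other dKO livers. The gap of that liver to the nearest of the others was 0.923 of the range of the group, above Dixon's 95% critical value for 4 samples. Chance alone gives such a value in about 1 of 20 groups, and 48 groups (24 named members in dKO and in control livers) were examined. In control livers E2f1 had 49.4 to 91.5. No cause was tested.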

How the results depend on the processing

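Of the 36 members that rose, 28 did so in all 17 other settings and 33 in all but quantile normalisation. Cdc25c rose in the 15 settings that tested it. Of the 4 that fell, 3 did so in all 17 (not Rfc3). Under quantile normalisation 7 S-phase genes fell and 6 of the wider replication genes rose. Leaving out each liver in turn gave 3 to 5 S-phase genes that fell and 6 to 10 wider replication genes that rose, lowest without dKO 3 (6) and without control 1 (7), against 11 with all livers; the cause was not tested. Members that did not pass the test changed sign: under quantile normalisation Cdt1 to -0.22, Gins1 to -0.40, Cdc45 to -0.043 and Prim1 to -0.32. Leaving out livers in turn gave ranges of -0.0081 to 0.19 for Cdt1, -0.11 to 0.19 for Gins1, -0.036 to 0.25 for Prim1 and -0.35 to 0.16 for Mybl2. The labels give no pairing of the livers, and correlations of same-numbered deviations were weak (0.032, -0.069, 0.037 and 0.077). Livers dKO 1, dKO 3 and dKO 4 each correlated most with the control of the same number, but dKO 2 with control 3 (0.058). With a replicate block, 4021 genes rose and 3112 fell, with S-phase counts of 11 and 4 and G2/M counts of 25 and 0; Ndc80 then missed the threshold (limma adjusted p = 0.0556) and Kif11 passed it (0.031). Members with few reads, such as Cdc25c, Ttk and Nuf2, are limited by depth.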

Other observations

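From the list of 37 genes of G1 and cell cycle control, 5 further genes are given here, picked after their values were seen. E2f8, an atypical E2F repressor that favours polyploidy in hepatocytes, had 107, 59.2, 69.8 and 51.2 normalised read counts in dKO livers and 202, 118, 185 and 160.1 in control livers, a log2 change of -1.24 (SE 0.23, limma adjusted p = 0.00111). Its relative E2f7 had a log2 change of 1.28 that did not pass (limma adjusted p = 0.067). Cdkn1a, encoding the CDK inhibitor p21, had 169, 329, 292 and 316 in dKO livers and 144, 97.5, 119 and 120.1 in control livers, a log2 change of 1.17 (SE 0.20, limma adjusted p = 0.000581). The E-type cyclin genes Ccne1 and Ccne2, which start S phase, rose by 1.60 (SE 0.30) and 1.03 (SE 0.24). All of the changes that passed were free of overlap between dKO and control livers.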
